A study of Mus musculus with 18 samples.

Results

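The docetaxel response of breast cancer cells carrying functional integrin β3 was set against that of cells carrying a β3 that cannot signal, gene by gene. The measure was the log2 change from DMSO to docetaxel in the first line minus the same change in the second, which uses 12 of the 18 libraries of the series, 3 cultures for each of 4 groups. All cells were PyMT-BO1, a mouse luminal B-like mammary tumour line of C57BL/6 background, with its own integrin β3 knocked out. The hβ3 line had received functional human β3 by retrovirus, the Δβ3 line a signalling-deficient mutant β3 and the pMx line the empty vector. Cultures were harvested after 24 h in DMSO or in 10 nM docetaxel. The knockout is shared by every group, including both lines compared here, and each construct is represented by 1 line. A difference between hβ3 and Δβ3 therefore holds everything that sets those lines apart, and the spread behind each p-value is that between cultures of a line. The labels name neither the mutation in Δβ3 nor the species it comes from.

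Integrin β3 pairs with αv or αIIb to form receptors for fibronectin, vitronectin and other matrix proteins. On binding, its cytoplasmic tail recruits talin, kindlin and kinases of the SRC and FAK families, which pass the signal to the cytoskeleton and to growth pathways. Docetaxel is a taxane that binds β-tubulin and stabilises microtubules, so that dividing cells stall in mitosis and often leave it with damaged or missegregated chromosomes. Stress genes under p53 control, interferon-induced genes and cell cycle genes are known to move in cells treated with such drugs.

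The libraries of the 4 groups held between 8.60 and 18.96 counts each in units of 1e6. Δβ3 DMSO culture 1 and Δβ3 docetaxel culture 2 stood apart from all others by heart muscle RNA. The summed level of 26 heart muscle markers was 5848 and 47580 CPM (counts per 1e6 of a library's TMM-scaled total) in those cultures, 567.5 to 844.1 CPM in the other Δβ3 cultures and 814.2 to 1600 CPM in the hβ3 cultures. Rn45s, the ribosomal RNA precursor, took 41.5% and 23.6% of the counts of the 2 marked cultures, against 6.92% to 10.05% in the other Δβ3 cultures and 10.9% to 33.0% in hβ3. Within the heart muscle sum, the single marker Ankrd1 had 786 to 832 CPM in hβ3 DMSO and 383 to 439 CPM in hβ3 docetaxel. In the other Δβ3 cultures Ankrd1 had 41.9 to 111 CPM. In the pMx cultures the sum was 494.7 to 2650 CPM, highest in DMSO culture 1 (2501 CPM) and docetaxel culture 1 (2650 CPM), where the summed endothelial markers were 32.0 and 39.1 CPM against 4.21 to 20.7 CPM in the other pMx cultures. Tests were run with all 18 libraries and with the 16 that leave out both marked Δβ3 cultures, which leaves 2 cultures in each Δβ3 group and keeps those of pMx. Responses and differences from the 18 are named as such, and those with no number of libraries are from the 16. The biological coefficient of variation was 36.1% in the first fit and 13.2% in the second. Itgb3, the gene of integrin β3, was listed at 66.6 to 113 CPM in Δβ3 DMSO and 72.2 to 131 CPM in hβ3 DMSO, as reads that align to the mouse gene, and at 0.322 to 1.30 CPM in pMx DMSO. Among the luminal markers of the tumour line, Krt8 lay at 1090 to 1910 CPM in 11 of the 12 libraries, and at 646 CPM in Δβ3 docetaxel culture 2. Of 19 listed luminal markers 4 had no counts in any library, and 7 to 10 had none in a given group of the 4. The filter on low counts was passed by 5 of the 19. Krt18, another luminal keratin, had 889 to 957 CPM in hβ3 DMSO, where the luminal sum was 1983 to 2078 CPM. The summed level in the 12 libraries was 1236 to 3418 CPM for luminal and 2258 to 3474 CPM for 13 fibroblast markers. Krt8 alone therefore does not set the cell type.

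Docetaxel moved 5 genes by different amounts in the 2 lines when all 18 libraries were used, of which 4 are described here. Plk2, a polo-like kinase induced by p53, Rgs2, an inhibitor of G protein signalling, and S100a7a, a psoriasin-like calcium-binding protein of epithelia, had a lower response in hβ3 than in Δβ3. Apcdd1, a membrane inhibitor of WNT signalling, had a higher one. The 5 were 0.0412% of 12145 tested genes (edgeR quasi-likelihood test, Benjamini-Hochberg adjusted p under 0.05), and 1047 genes had an unadjusted p under 0.05, against 1183 of 12356 with 16 libraries. With 16 libraries, 73 of 12356 genes were called (0.591%), 35 (0.283%) with a higher and 38 (0.308%) with a lower response in hβ3, and 15 of the 73 differed at least 2-fold. All 5 genes were among the 73, in the same direction, and no other of the 73 was called with 18 libraries. Taken alone, the docetaxel response was called with 18 libraries in 1.16% of tested genes in hβ3, 6.87% in Δβ3 and 3.62% in pMx. With 16 libraries these shares were 12.5%, 11.3% and 21.3%, so their order depends on the 2 marked cultures. The median difference over all tested genes was -0.08 with 18 and 0.01 with 16 libraries.

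Plk2 is on chromosome 13 (110395046 to 110400844, plus strand, mm10). In DMSO it had 192, 202 and 191 CPM in hβ3 and 23.0, 28.0 and 24.4 CPM in Δβ3. In docetaxel it had 135, 137 and 139 CPM in hβ3 and 58.7, 61.5 and 57.5 CPM in Δβ3. The hβ3 cultures were above all Δβ3 cultures in both media, and neither line's DMSO and docetaxel values overlapped. With 18 libraries Plk2 fell in hβ3, by 0.51 ± 0.11 on the log2 scale (SE, 3 against 3 cultures), and rose in Δβ3, by 1.24 ± 0.11. The difference between these responses was -1.74 ± 0.15 (95% interval -2.04 to -1.45, edgeR adjusted p = 2.75e-05). It was -1.64 ± 0.12 with 16 libraries (adjusted p = 1.75e-08). In pMx, Plk2 had 22.2 to 25.1 CPM in DMSO and 46.0 to 48.5 CPM in docetaxel, with an 18-library response of 0.97 ± 0.11. The call of Plk2 held without any 1 of the 18 libraries, with adjusted p between 8.86e-06 and 4.08e-04.

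The 250 bases before the start of Plk2 are shown because this gene has the smallest p of the comparison and its window holds a cyclic AMP response element. They are from RefSeq on GRCm38.p6, chr13:110394794-110395043, plus strand, and the capitals mark the element, whose core TGACGT here overlaps its own reverse complement. The window of Rgs2, which was called beside Plk2, holds the core on the opposite strand (chr1:144004162-144004399, minus strand). It was ended where the first annotated exon begins.
Plk2: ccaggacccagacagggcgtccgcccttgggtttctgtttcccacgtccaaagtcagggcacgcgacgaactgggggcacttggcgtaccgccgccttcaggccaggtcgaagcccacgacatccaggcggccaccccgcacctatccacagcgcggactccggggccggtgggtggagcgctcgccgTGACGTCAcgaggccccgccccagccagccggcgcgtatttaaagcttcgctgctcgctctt
Rgs2: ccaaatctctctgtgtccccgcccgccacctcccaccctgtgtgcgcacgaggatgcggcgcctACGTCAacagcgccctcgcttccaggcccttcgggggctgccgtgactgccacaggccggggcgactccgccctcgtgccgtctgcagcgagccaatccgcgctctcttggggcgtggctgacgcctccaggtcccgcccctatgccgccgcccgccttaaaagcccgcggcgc

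Rgs2 is on chromosome 1 (143999338 to 144004161, minus strand). In Δβ3 it had 18.1, 19.2 and 17 CPM in DMSO and 49.8, 53.9 and 48.7 CPM in docetaxel. In hβ3 the values were 16.4, 22.0 and 18.2 CPM in DMSO and 23.8, 19.5 and 24.2 CPM in docetaxel. The lines overlapped in DMSO, and in docetaxel every Δβ3 culture was above every hβ3 culture. With 18 libraries Rgs2 rose in Δβ3 by 1.49 ± 0.15, while its response in hβ3 was 0.25 ± 0.15 (edgeR adjusted p = 0.690) and the DMSO and docetaxel values of hβ3 overlapped. The difference was -1.24 ± 0.21 (adjusted p = 0.0492) with 18 and -1.18 ± 0.19 (adjusted p = 0.00238) with 16 libraries. In pMx, Rgs2 had 15.2 to 17.8 CPM in DMSO and 38.7 to 45.9 CPM in docetaxel. With 18 libraries as the base the call of Rgs2 was lost without any 1 library other than Δβ3 docetaxel culture 2, at adjusted p from 0.0644 (without Δβ3 DMSO culture 1) to 0.216 (without hβ3 DMSO culture 2). It was also lost in 5 other alternatives, at up to 0.571 with only the 4 groups of the contrast. With 16 as the base it was kept throughout, at up to 0.0332.

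S100a7a is on chromosome 3 (90654017 to 90658669, plus strand). In hβ3 it had 56.9, 57.2 and 54.2 CPM in DMSO and 24.6, 29.5 and 25.5 CPM in docetaxel. In Δβ3 it had 0.789, 1.16 and 0.865 CPM in DMSO and 1.81, 5.91 and 2.51 CPM in docetaxel, so every Δβ3 culture was far below every hβ3 culture. The values of 0.789 and 5.91 CPM are those of the 2 cultures with heart muscle RNA. With 16 libraries S100a7a fell in hβ3 by 1.06 ± 0.14 and rose in Δβ3 by 1.05 ± 0.31, from about 1 CPM. The difference was -2.86 ± 0.48 (edgeR adjusted p = 0.0492) with 18 and -2.12 ± 0.34 (adjusted p = 0.00199) with 16 libraries. In pMx it had 1.15 to 2.25 CPM in DMSO and 1.31 to 1.68 CPM in docetaxel, with overlapping ranges. The 18-library call of S100a7a was lost in 15 of 18 fits with 1 library left out (adjusted p 0.0511 to 0.206, the highest without hβ3 docetaxel culture 1). It held without pMx DMSO culture 1, Δβ3 docetaxel culture 1 or Δβ3 docetaxel culture 2. It was lost in 4 other alternatives, at up to 0.401 with only the 4 groups of the contrast.

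Apcdd1 is on chromosome 18 (62922231 to 62961179, plus strand). In Δβ3 it had 256, 229 and 214 CPM in DMSO and 130, 133 and 127 CPM in docetaxel. In hβ3 the values were 153, 173 and 169 CPM in DMSO and 190, 187 and 186 CPM in docetaxel. The order of the lines turned over, with Δβ3 above hβ3 in DMSO and below it in docetaxel, without overlap in either. With 16 libraries Apcdd1 fell in Δβ3 by 0.78 ± 0.083 and rose in hβ3 by 0.20 ± 0.0672 (edgeR adjusted p = 0.0484, and 0.627 with 18). The difference was 1.03 ± 0.14 (adjusted p = 0.00897) with 18 and 0.98 ± 0.11 (adjusted p = 6.8e-06) with 16 libraries. In pMx, Apcdd1 fell from 208 to 216 CPM in DMSO to 110 to 120 CPM in docetaxel. Leaving out hβ3 DMSO culture 1 ended its 18-library call (adjusted p = 0.0605), as did leaving out hβ3 docetaxel culture 1 (0.0529) and fitting only the 4 groups of the contrast (0.401).

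**Figure D1:**
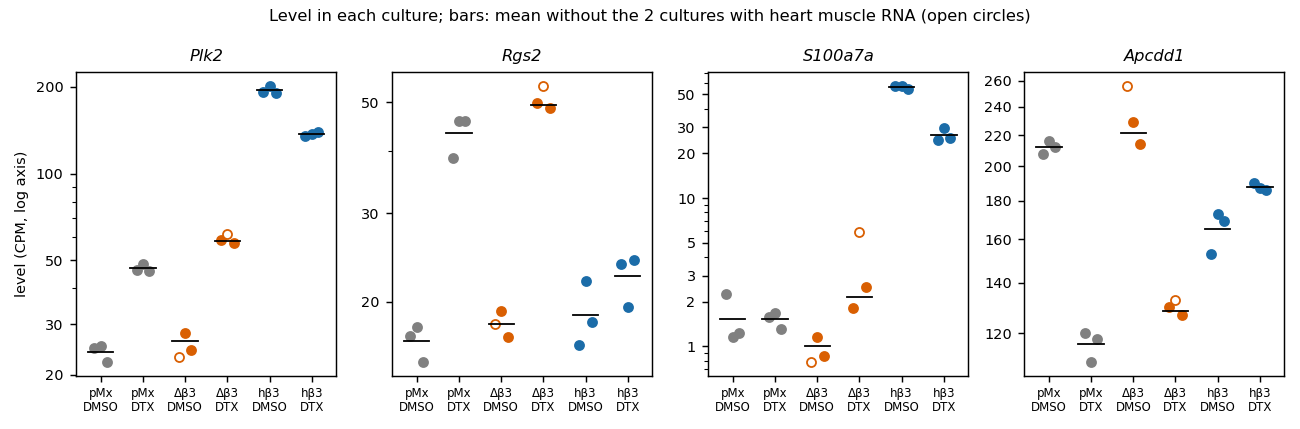
Levels of Plk2, Rgs2, S100a7a and Apcdd1 in each culture of the 6 groups (CPM, log axes that differ between panels); points are cultures, open circles are Δβ3 DMSO culture 1 and Δβ3 docetaxel culture 2, and bars are means without those. Plk2 and S100a7a fell in hβ3, Rgs2 rose in Δβ3 and pMx, and the order of hβ3 and Δβ3 turned over for Apcdd1.

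Each of the 73 genes called with 16 libraries was also tested with 18. Of these, 72 had the same sign there and 55 an unadjusted p under 0.05, while their median standard error was 0.281 against 0.135 with 16 libraries. The exception in sign was Sox4, a transcription factor of embryonic and tumour tissue, at -0.64 with 16 and 0.05 with 18 libraries. Of 23 genes with the largest differences, 12 higher and 11 lower, 10 kept their call in each of 16 fits that left out 1 more library. These were Plk2, S100a7a, Itga2, Rgs2, Rnf213, Mctp2, Mmp3, Apcdd1, Ak5 and Thbs2. The other 13 lost it at least once, 12 of them without Δβ3 docetaxel culture 1, 10 without Δβ3 docetaxel culture 3, 9 without Δβ3 DMSO culture 2 and 7 without Δβ3 DMSO culture 3. Galnt15 was the one that kept it without Δβ3 docetaxel culture 1.

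**Figure D2:**
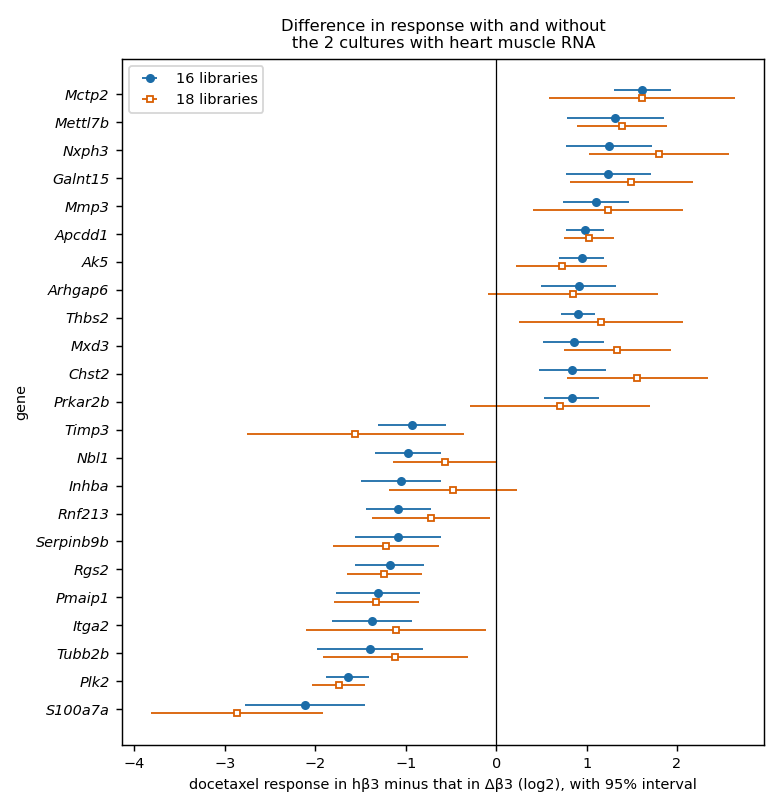
Docetaxel response in hβ3 minus that in Δβ3 (log2) for the same 23 genes with the largest differences, with 95% intervals; filled circles are the fit of 16 libraries and open squares that of all 18. The 2 estimates lie on the same side of 0 for each gene shown, and the 18-library interval is the wider one for each but Mettl7b.

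The 73 differences took several forms, which describe the contrast by its own parts and are no further evidence for it. With 16 libraries the response was called in 12.5% of all tested genes in hβ3 and 11.3% in Δβ3. In 12 of the 73 genes both responses were called and had opposite directions. Besides Plk2, S100a7a and Apcdd1 these were Rnf213, an interferon-induced ubiquitin ligase, Klf4, a transcription factor of epithelial differentiation, Pmepa1, a TGFβ feedback inhibitor, Bhlhe40, a circadian and hypoxia repressor, Kctd11, Prkar2b, a regulatory subunit of protein kinase A, Bok, a member of the BCL2 family, Loxl3, a lysyl oxidase, and Sap30l. In 12 genes both lines moved the same way and hβ3 moved less, among them Tubb2b, Pmaip1, Nbl1, Mettl7b, Ak5 and 3 genes of the replicative helicase. In 8 genes hβ3 moved more, among them Thbs2, Jup and Ddit4. A further 20 were called in Δβ3 alone, 15 of them with a lower response in hβ3, and 21 in hβ3 alone. The hβ3 response rests on 3 against 3 cultures and the Δβ3 response on 2 against 2. Their median standard errors over all tested genes were 0.224 and 0.276. A call in 1 line alone therefore does not show that the other line did not move. The median size of the response over the 73 genes was 0.42 in hβ3 and 0.48 in Δβ3, against 0.24 and 0.28 over all tested genes.

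**Figure D3:**
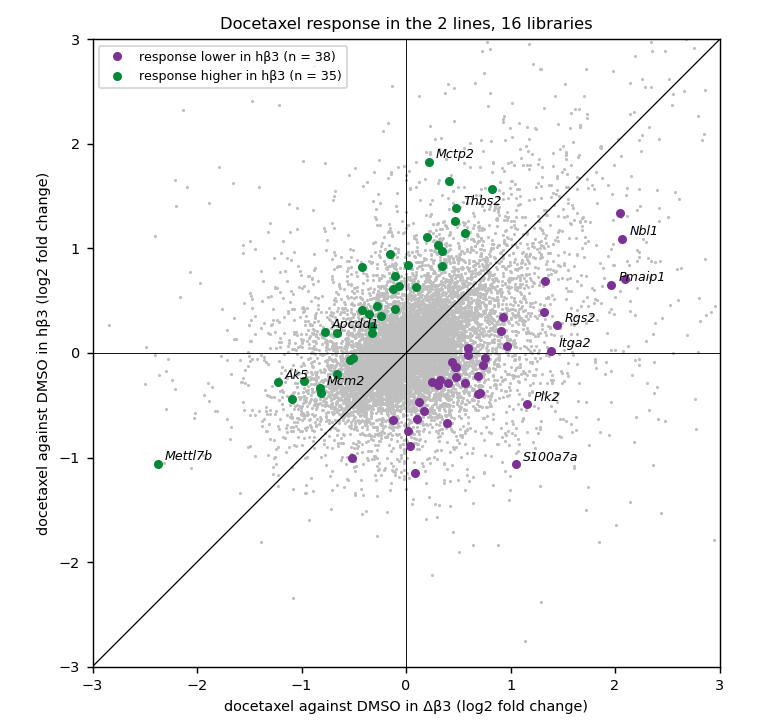
Log2 response to docetaxel in Δβ3 (horizontal) and in hβ3 (vertical) with 16 libraries; grey points are tested genes, coloured points the 73 called for the difference, and the diagonal marks equal responses. Plk2 and S100a7a lie in the quadrant of genes that rose in Δβ3 and fell in hβ3, Apcdd1 in the opposite one, and 84 uncalled genes fall outside the axes.

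Among genes with the larger response in Δβ3, Itga2, the α2 chain of the collagen receptor, had 7.40, 9.85 and 11.2 CPM in Δβ3 DMSO and 30.5, 6.37 and 24.4 CPM in Δβ3 docetaxel. In hβ3 it had 14 to 16.2 CPM in DMSO and 14.8 to 15.6 CPM in docetaxel, with overlapping ranges. The low docetaxel value of Δβ3 was that of the culture with the most heart muscle RNA. With 16 libraries, which leave out that culture and Δβ3 DMSO culture 1 (7.40 CPM), Itga2 rose in Δβ3 by 1.39 ± 0.18. The difference was -1.37 ± 0.23 with 16 libraries (edgeR adjusted p = 0.00234) and -1.11 ± 0.51 with 18 (adjusted p = 0.579). Itga2 was the only called member of 15 tested integrins, whose median difference was -0.14. Itgav, the αv partner of β3, had a difference of -0.22 ± 0.13 (adjusted p = 0.619) and Itgb3 one of 0.01 ± 0.34 (adjusted p = 0.997).

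Of 14 tested tubulin genes, 2 had a called lower response in hβ3 and 0 a higher one, against 0.308% and 0.283% of all tested genes. The list median was 0.16. Tubb2b rose in both lines, by 0.70 in hβ3 and 2.10 in Δβ3, and the difference was -1.40 ± 0.30 with 16 libraries (edgeR adjusted p = 0.0239). In docetaxel the lines overlapped for Tubb2b, at 10.8 to 14.8 CPM in hβ3 and 5.59 to 13.3 CPM in Δβ3, while in DMSO hβ3 was higher, at 7.24 to 8.87 against 2.16 to 3.96 CPM. Tubb3, the neuronal β-tubulin, rose in Δβ3 by 0.90 and had 0.21 (adjusted p = 0.0813) in hβ3, a difference of -0.69 ± 0.13. Both calls were lost without Δβ3 docetaxel culture 1, for Tubb3 at an adjusted p of 0.0722, and that of Tubb2b rose as far as 0.174, without Δβ3 DMSO culture 3. With 18 libraries the differences were -1.12 and -0.54, and neither was called.

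Of 38 tested p53 targets, 3 had a lower and 1 a higher response in hβ3, against 0.308% and 0.283% of all tested genes. The list median was -0.14. The list rose in each line, with 21 members up in hβ3 and 24 in Δβ3, where 7.28% and 5.98% of all tested genes were up. Plk2 and Klf4 moved in opposite directions in the lines, Pmaip1, the BCL2 antagonist NOXA, rose in both, and Ddit4, the stress-induced mTOR inhibitor REDD1, rose more in hβ3. Pmaip1 had 20.6 to 21.1 CPM in hβ3 DMSO and 29.8 to 35.3 CPM in hβ3 docetaxel, against 1.87 to 2.25 CPM and 7.46 to 9.29 CPM in Δβ3, so hβ3 was higher throughout and the gap was smaller in docetaxel. The difference for Pmaip1 was -1.31 ± 0.24 with 16 libraries (edgeR adjusted p = 0.00623) and -1.32 with 18 (0.0739). It was lost without Δβ3 DMSO culture 2 (0.0504) or Δβ3 docetaxel culture 1 (0.0786). The classical targets Cdkn1a (p21), Mdm2, Gdf15, Fas, Btg2 and Trp53inp1 were not called, at -0.65, -0.28, 0.17, -1.66, -0.45 and 0.72, and all but Btg2 were counted below 6 CPM in every library.

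Of the other polo-like kinases, Plk1, which drives mitotic entry, had a difference of 0.02 ± 0.17 with 16 libraries (edgeR adjusted p = 0.988), and Plk4, which duplicates centrioles, -0.38 ± 0.53 (0.889). Plk3, at up to 0.692 CPM, did not pass the filter on low counts. Of 9 tested regulators of G protein signalling, Rgs2 was the called one. Rgs16 fell in hβ3 by 1.13 ± 0.15, from 43.1 to 50.2 CPM in DMSO to 17.9 to 24.1 CPM in docetaxel, while Δβ3 had 10.1 to 11.4 and 10.1 to 11.8 CPM. Its difference of -1.0 ± 0.25 missed the threshold with 16 libraries (edgeR adjusted p = 0.0675) and with 18 (0.503). It passed in 7 of 26 alternatives to the 16-library fit, among them DESeq2, limma voom and no filter on low counts (lowest 0.0036). S100a7a was the called one of 12 S100 genes and Apcdd1 of 29 tested WNT pathway genes, where the median was -0.08.

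Of 19 tested TGFβ, activin and SMAD targets (median -0.10) 3 had a lower and 0 a higher response in hβ3. The shares over all tested genes were 0.308% and 0.283%. Inhba, the activin A subunit, and Pmepa1 were among the 3. Of 38 extracellular matrix genes (median -0.14) 1 was lower and 2 were higher, against the same shares of all genes. Timp3, an inhibitor of matrix metalloproteinases, rose in Δβ3 by 1.32 and had 0.39 in hβ3 (edgeR adjusted p = 0.0542). Its Δβ3 docetaxel value was 179 CPM in culture 2, the one with the most heart muscle RNA, and 41.9 CPM in the lowest culture. Nbl1, a secreted BMP antagonist, rose in both lines, by 1.09 in hβ3 and 2.07 in Δβ3. The calls of Inhba, Timp3 and Nbl1 were each lost without Δβ3 docetaxel culture 1 and without at least 1 other library, with adjusted p up to 0.266, 0.139 and 0.0808. The differences with 16 libraries were -1.06, -0.93 and -0.97. With 18 they were -0.48, -1.56 and -0.56, and none of the 3 was called (adjusted p of 0.66, 0.579 and 0.593).

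Thbs2, the matricellular protein thrombospondin 2, had 364, 339 and 358 CPM in hβ3 DMSO and 929, 893 and 912 CPM in hβ3 docetaxel. In Δβ3 it had 2610, 3670 and 3710 CPM in DMSO and 5430, 1300 and 4810 CPM in docetaxel. Both lows of Δβ3 were in the cultures with heart muscle RNA, and hβ3 was below Δβ3 in every culture. Without those cultures Thbs2 rose in hβ3 by 1.38 ± 0.0605 and in Δβ3 by 0.48 ± 0.0725, a difference of 0.90 ± 0.0938 (edgeR adjusted p = 3.65e-06). With 18 libraries it was 1.16 ± 0.46 (adjusted p = 0.579). Mmp3, the matrix metalloproteinase stromelysin 1, had 2.48 to 3.67 CPM in hβ3 DMSO and 5.34 to 6.27 CPM in hβ3 docetaxel. In Δβ3 it had 53.5, 88.2 and 85.4 CPM in DMSO and 79.6, 27.4 and 75.6 CPM in docetaxel. The low value of each Δβ3 group was the culture with heart muscle RNA, and without those 2 cultures were left in each group. The Δβ3 response was then -0.15 ± 0.12 and not called (edgeR adjusted p = 0.498), against 0.95 in hβ3. The difference for Mmp3 was 1.10 ± 0.19 with 16 libraries (adjusted p = 0.00265) and 1.24 ± 0.42 with 18 (0.541).

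Mctp2, a membrane protein with C2 domains, had the largest called higher response. It had 5.54, 6.26 and 5.53 CPM in hβ3 DMSO and 21.6, 21.5 and 17.9 CPM in hβ3 docetaxel. In Δβ3 it had 21.2, 56.9 and 64.5 CPM in DMSO and 72.4, 23.2 and 67.7 CPM in docetaxel, the lowest of each group being the culture with heart muscle RNA. The difference for Mctp2 was 1.62 ± 0.16 with 16 libraries (edgeR adjusted p = 2.02e-06) and 1.62 ± 0.52 with 18 (adjusted p = 0.541). Mettl7b, a methyltransferase of lipid droplets, fell less in hβ3 (-1.06) than in Δβ3 (-2.38), and Ak5, an adenylate kinase, likewise (-0.28 and -1.23). Their differences were 1.32 and 0.95 with 16 libraries, and 1.39 (edgeR adjusted p = 0.0739) and 0.72 (0.551) with 18. The remaining named genes with a higher response were Nxph3, a neurexophilin, Galnt15, which starts O-linked glycosylation, Arhgap6, a GTPase-activating protein, Mxd3, a MYC network repressor, Chst2, a sulfotransferase, and Prkar2b, between 0.83 and 1.25. With 18 libraries Chst2 had 1.56 in place of 0.84 and Mxd3 1.34 in place of 0.86. Ak5 and Mctp2 held in each fit with a library left out, while Arhgap6, counted over 8 transcript models, lost its call in 14 of 16.

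Of 39 tested immediate-early and MAPK output genes, 4 had a called lower response in hβ3 and 0 a higher one. The shares over all tested genes were 0.308% and 0.283%. In 33 of the list the difference was negative, against 5989 of 12356 tested genes, and the median was -0.21 against 0.01 over all genes. Dusp10, a phosphatase of p38 and JNK, had -0.86 ± 0.14 with 16 libraries (edgeR adjusted p = 0.00214), where it held without any 1 library, and -0.90 ± 0.32 with 18 (0.551). Junb, an AP-1 subunit, rose in Δβ3 by 0.75 and had -0.05 in hβ3, a difference of -0.80 with 16 and -0.36 with 18 libraries. Hbegf, an EGF receptor ligand, and Klf6, a zinc finger factor, fell in hβ3, by 0.65 and 0.27, and their calls were lost in 12 and 13 of 16 fits with a library left out. With 18 libraries the list had 0 edgeR calls, 0 DESeq2 calls and 4 members with an unadjusted p under 0.05, while limma voom with sample weights called 4 lower. The median was -0.17. Of 20 NF-kB targets and inflammatory factors, Ptgs2, the cyclooxygenase COX-2, and Nfkbia, the NF-kB inhibitor IκBα, were lower, against 0.308% of all tested genes. The list median was 0.06. Ptgs2 had 1310, 1170 and 1340 CPM in hβ3 DMSO and 692, 688 and 663 CPM in hβ3 docetaxel, and 217 to 288 CPM in Δβ3 docetaxel. The difference was -0.92 ± 0.11 with 16 libraries (adjusted p = 2.76e-05) and -1.06 ± 0.26 with 18 (adjusted p = 0.489).

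Of 33 tested genes of DNA replication, 4 had a called higher response in hβ3, that is a smaller fall, and 0 a lower one. The shares over all tested genes were 0.283% and 0.308%. In 31 of the list the difference was positive, against 6367 of 12356 tested genes, and the list median was 0.43. The median response was -0.32 in hβ3, -0.70 in Δβ3 and -0.73 in pMx, and 12 members fell in hβ3 against 23 in Δβ3, against 5.17% and 5.28% of all tested genes. The 2 counts were not tested against each other. The 4 called genes, Mcm2, Mcm3, Mcm4 and Mcm7, encode subunits of the helicase that unwinds DNA at replication forks. Mcm2 had 628 to 644 CPM in hβ3 DMSO and 485 to 512 CPM in hβ3 docetaxel, against 586 to 627 and 259 to 347 CPM in Δβ3. For Mcm2 the lines were close in DMSO, and in docetaxel every hβ3 culture was above every Δβ3 culture. Mcm7 instead stood lower in hβ3 in DMSO (-0.42, edgeR adjusted p = 2.46e-05) and level in docetaxel (0.04, 0.738). Mcm4 was lower in hβ3 in DMSO (-0.19, 0.0457) and higher in docetaxel (0.27, 0.00502). The differences with 16 libraries were 0.49 ± 0.0944 for Mcm2 (edgeR adjusted p = 0.0095), 0.43 for Mcm3, 0.46 for Mcm4 and 0.46 for Mcm7. Each lost its call in 3 to 10 of 16 fits with a library left out, with adjusted p up to 0.115, 0.229, 0.191 and 0.171. With 18 libraries none of the 4 was called, at 0.61, 0.64, 0.55 and 0.68, and the list median was 0.53. Over 39 genes of G2/M and mitosis the median was -0.05, with 0 edgeR calls and 1 lower call each by DESeq2 and limma voom. An unadjusted edgeR p under 0.05 was found for 11 of the 39, against 1183 of 12356 tested genes.

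Of 41 tested interferon response genes, 25 rose in hβ3 and 32 in Δβ3, against 7.28% and 5.98% of all tested genes. The median responses were 1.17 and 1.51. The median difference was -0.34, and Ifit1 was the one called. A negative difference was found in 34 members, against 5989 of 12356 tested genes. Ifit1, which binds foreign RNA, had 34.8 to 40.7 CPM in hβ3 DMSO and 83.5 to 106 CPM in hβ3 docetaxel, against 35.7 to 42.5 CPM in Δβ3 DMSO and 178, 52.1 and 153 CPM in Δβ3 docetaxel, the low value being the culture with heart muscle RNA. Its difference was -0.71 ± 0.16 with 16 libraries (edgeR adjusted p = 0.0363) and -0.40 ± 0.40 with 18 (0.734), and the 16-library call was lost in 10 of 16 fits with a library left out (up to 0.307). Usp18, which dampens interferon signalling, had 0.26 and Ifi44 -0.15, neither called. Rnf213 rose in Δβ3 by 0.69 and fell in hβ3 by 0.39, a difference of -1.08 ± 0.18 (adjusted p = 0.00311, and -0.72 at 0.579 with 18 libraries). The clone-named models mKIAA1554 and BC075659 were called as well, at -0.91 and -0.85, and were not matched to a gene in the annotation used here. Whether they overlap Rnf213 or another named gene was not tested, so the 73 symbols may stand for fewer loci.

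Nuclear genes of oxidative phosphorylation had 0 calls by edgeR, DESeq2 or limma voom, and 14 of 30 tested members had an unadjusted edgeR p under 0.05 with 16 libraries, against 1183 of 12356 tested genes. There 29 of 30 had a positive difference, against 6367 of 12356 tested genes, and the median was 0.29. With 18 libraries 26 of 29 were negative, against 6743 of 12145 tested genes. The median was then -0.67, or 0.23 by limma voom with sample weights. The heart muscle markers turned over with them, at a median of -2.66 with 18 and 0.47 with 16 libraries, where all 19 tested markers were positive and 0 were called. Skeletal muscle markers had 0.77 and fibroblast markers 0.56 with 16 libraries. The part of other cell types in the oxidative phosphorylation, Timp3 and Thbs2 values was not tested. In bulk RNA, fewer cells of a type and less RNA per cell cannot be told apart. Of 31 amino acid and ATF4 response genes (median 0.11) 2 were higher, against 0.283% of all tested genes. These were Ddit4 and Mthfd2, the mitochondrial folate enzyme. NRF2 targets had a median of 0.22, focal adhesion genes -0.20 and glycolysis genes 0.07, where Egln3, an oxygen sensor, was higher and Ndrg1 lower. Cyr61, a secreted YAP target, was the called one of 30 SRF and YAP targets, lower at -0.49 (-0.83 with 18 libraries, adjusted p = 0.554) and lost in 13 of 16 fits with a library left out.

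**Figure D4:**
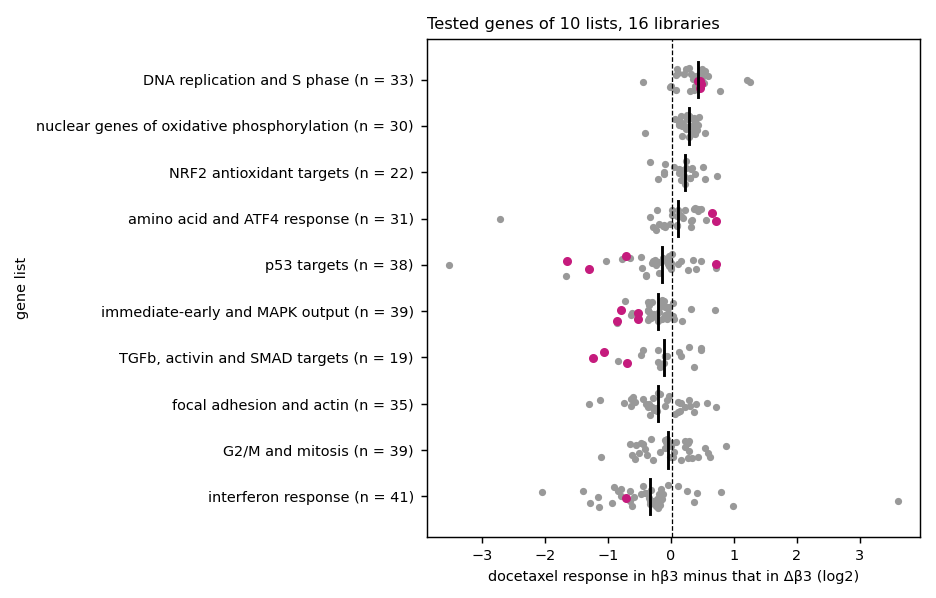
Docetaxel response in hβ3 minus that in Δβ3 (log2, 16 libraries) for each tested gene of the lists named on the left; grey points are uncalled and magenta points called genes, vertical bars are list medians, and the dashed line is the median of all tested genes. Replication and oxidative phosphorylation genes lie mostly to the right of that line, immediate-early and interferon genes mostly to the left.

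The lines already differed in DMSO for most of the 73 genes. Of these 32 were higher and 33 lower in hβ3 than in Δβ3 there, against 11.1% and 12.2% of all tested genes. Of the 38 genes with a lower response in hβ3, 29 stood higher in hβ3 in DMSO, and of the 35 with a higher response 28 stood lower. In docetaxel 23 were higher, 35 lower and 15 not called, where 9.6% and 10.3% of all genes were called. The gap between the lines was narrower in docetaxel in 53 of the 73 (72.6%), against 6774 of 12356 tested genes (54.8%). These counts use the same libraries as the difference itself, so nothing was read from them. Mmp3 had the largest deficit in hβ3, at -4.87 in DMSO and -3.77 in docetaxel, and S100a7a the largest excess, at 5.75 and 3.64. Id4, an inhibitor of helix-loop-helix factors, stood at -4.00 and -3.17 and Sdpr, a caveolar protein, at 3.37 and 2.64. Ak5 and Mettl7b went the other way, from 1.51 to 2.45 and from 1.33 to 2.64.

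**Figure D5:**
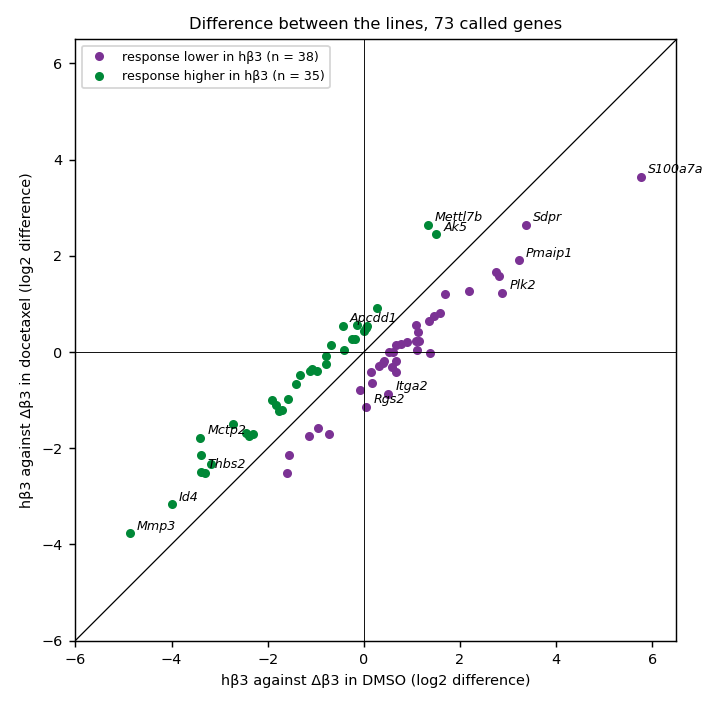
Log2 difference hβ3 minus Δβ3 in DMSO (horizontal) and in docetaxel (vertical) for the 73 genes called with 16 libraries; the diagonal marks an equal difference in both media. Genes with a lower response in hβ3 lie below the diagonal by construction, most of them to the right of 0, and those with a higher response above it, most of them to the left of 0.

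The empty vector line shares no library with either response. Its libraries did enter the filter and the estimate of spread behind the 73 calls. Its own response lay nearer to that of Δβ3 than to that of hβ3 in 73 of the 73 genes, against 7535 of 12356 tested genes (61%). It was called in 55 of the 73 (75.3%), 36 upward and 19 downward, against 21.3% of all tested genes. Plk2, for example, had responses of 0.98 in pMx, 1.15 in Δβ3 and -0.49 in hβ3 with 16 libraries, Rgs2 1.39, 1.44 and 0.27, and Apcdd1 -0.86, -0.78 and 0.20. Among genes that moved in hβ3, Mctp2 had 0.24 in pMx, 0.21 in Δβ3 and 1.83 in hβ3. The nearness to Δβ3 itself was not tested. The 73 genes were picked for a gap between hβ3 and Δβ3 that was large against this shared spread. The shares over all tested genes are therefore no matched background for either count.

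RefSeq windows of 250 bases before the start were found for 25 of the 38 genes with a lower and 28 of the 35 with a higher response. The cyclic AMP element core TGACGT, searched on both strands, was in 5 of 26 windows of the first group (19.2%), 3 of 33 of the second (9.09%) and 2125 of 32851 windows of all genes (6.47%). The GC box GGGCGG was in 53.8%, 66.7% and 32.7% of the same windows, and the AP-1 site TGANTCA in 3.85%, 9.09% and 6.75%. The TEAD site GGAATG was in 11.5%, 12.1% and 12.6%, and the E-box CACGTG in 7.69%, 6.06% and 6.02%. The TCF/LEF site ATCAAAG was in 3.85%, 0% and 3.21%, and the E2F site TTGGCGC in 3.85%, 0% and 1.97%. The windows of all genes include genes not tested here, so their shares are no background of tested genes. None of the shares was tested. Besides Plk2 and Rgs2, the core TGACGT was in the windows of Ccdc186, Nbl1 and Snx30 among genes with a lower response. These are shown here as the stretch around it with the core in capitals on the gene's strand. They lie at chr19:56822254-56822279 (minus strand), chr4:139093011-139093036 (minus strand) and chr4:59805400-59805421 (plus strand). A match says that these letters are present and nothing on a factor.
Ccdc186: caggtgcttaACGTCAcgcggtccgc
Nbl1: tgagacacccTGACGTcggaggcgct
Snx30: gtgtgcACGTCAggaccgtaaa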

How the data were processed

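RNA of 18 cultures was sequenced as single 50-base reads after removal of ribosomal RNA, per the labels. Raw read counts for 63759 transcript models were deposited by the authors, made with FastQC, HISAT2 and featureCounts on mm10 per the submitters' processing notes. Their versions, the annotation, the use of strand and the treatment of multi-mapping reads were not given in the sources used here. A deposited column of model lengths in bases, another unit, was not used. Counts of models with the same symbol were summed to 32699 symbols, 13170 of them with several models, so reads shared by models or overlapping genes may be lost or split.

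Tests used R 4.3.3 and edgeR 4.0.16: filterByExpr over the 6 groups, TMM factors, 1 coefficient per group, the robust quasi-likelihood F-test (two-sided) and Benjamini-Hochberg adjustment over all tested genes, with a call under 0.05. Total counts per library were 7.97 to 18.96 in units of 1e6. Levels are CPM on the 18-library scale, intervals are 95% from the model's standard error, and coordinates are from GENCODE M21. The fit was checked on simulated counts. Alternatives were RLE factors, other filters, DESeq2 1.42.0, limma 3.58.1 voom with sample weights, only the 4 groups, Rn45s left out, covariates, a replicate block and each library left out in turn.

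Named genes were all called with 18 libraries, the 12 largest called differences in each direction with 16 (mean of at least 2 CPM, no muscle list member or predicted model), up to 3 called members of each of 35 lists with the smallest p (or 2 uncalled), and 22 set genes. Of the genes this rule names, 1 is not reported here. Other called genes were named after their values were seen. The comparison, the lists and the rule were chosen with earlier results of these data known. Lists are described by counts and medians and were not tested. Same-numbered cultures were checked for shared deviations and were treated as unpaired. With 16 libraries 1 of 12 correlations was above 0.1, and with 18 libraries 6 of 18 were (up to 0.459). The check cannot settle pairing, because with 16 libraries only culture 3 of Δβ3 is left in both media. Promoter windows come from RefSeq on GRCm38.p6.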

Additional observations from a re-analysis of the deposited data

Results flagged for a closer look

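In 4 genes described here the response to docetaxel differed between hβ3 and Δβ3 by the test of the difference itself over all 18 libraries. The value, hβ3 minus Δβ3 on the log2 scale, was 1.03 for Apcdd1, -1.74 for Plk2, -1.24 for Rgs2 and -2.86 for S100a7a (edgeR quasi-likelihood test, adjusted p of 0.00897, 2.75e-05, 0.0492 and 0.0492). Of 18 fits with 1 library left out, the call was lost in 2 for Apcdd1, 0 for Plk2, 17 for Rgs2 and 15 for S100a7a. Without both heart-marked cultures the value for S100a7a was -2.12. With 3 cultures in a group, single cultures were not tested as outliers.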

How the results depend on the processing

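With all 18 libraries the count of called genes was 5. It was 3 with RLE size factors, 3 with Rn45s left out, 1 with only the 4 groups of the contrast, 9 with the heart muscle marker sum as a covariate, 37 with DESeq2, 71 with limma voom and sample quality weights, and 73 with both heart-marked cultures left out. Over 18 fits with 1 library left out it ran from 1, with culture 1 of hβ3 DMSO or of hβ3 docetaxel absent, to 9, with culture 2 of Δβ3 docetaxel absent. With 16 libraries the count was 73. It was 159 with no filter on low counts, 129 with DESeq2 and 161 with limma voom. Leaving out 1 library gave 30 (without Δβ3 docetaxel culture 1) to 127 (without hβ3 DMSO culture 2), with 34 without Δβ3 docetaxel culture 3, 39 without Δβ3 DMSO culture 2, 43 without hβ3 docetaxel culture 2 and 112 without pMx docetaxel culture 1. After the data were seen, the Rn45s share was added as a covariate, which gave 133, and hβ3 DMSO was reduced to culture 2, its lowest in Rn45s, which gave 99. With the replicate block, which takes same-numbered cultures as belonging together, the counts were 3 of 18-library and 71 of 16-library calls. In 21 of the 73 genes (10 higher, 11 lower) the call held in all 26 alternatives, 52 lost it without at least 1 library, and 0 changed direction. Among genes without a call, some differences with 16 libraries took the other sign in an alternative, also without a call (edgeR, DESeq2 and limma adjusted p of at least 0.445). By limma voom Itgb3 had -0.0778 and Mdm2 0.31, with the replicate block Plk1 had -0.0752, and with hβ3 DMSO reduced to culture 2 Plk1 had -0.0545 and Plk4 0.00884. With 1 library left out Itgb3 ran from -0.22 to 0.17, Mdm2 from -0.74 to 0.54, Plk1 from -0.0494 to 0.11, Plk4 from -0.91 to 0.0249, Gdf15 from -0.47 to 0.64, Trp53inp1 from -0.16 to 1.34 and Ifi44 from -0.78 to 0.20. The causes were not tested.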
